A study of Mus musculus with 9 samples.

Results

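Hdc, Aoc1, Il4i1 and Nos2 encode enzymes that act on amines and amino acids, and the 4 were rows of a gene count table with 38720 rows from mouse thymic epithelial cells (TEC). They were selected on their measured level in the medullary against the cortical cells, with these counts known, so their medullary over cortical ratio is given below as a description without a test. The study measured polyA RNA in sorted cortical TEC (cTEC) and medullary TEC (mTEC) of mice with altered Foxn1, the transcription factor that TEC need to form a working thymus. Sorting took CD45-negative, EpCAM+ and MHCII+ cells, with Ly51 marking cTEC and UEA-1 binding marking mTEC.

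The transgenic set had 10 libraries from mice that carried a FLAG-tagged Foxn1 BAC transgene (wt*) on the nude background (nu/nu), which lacks functional Foxn1 of its own. Heterozygous mice (wt*/-::nu/nu) gave 2 mTEC and 3 cTEC libraries, and homozygous mice (wt*/wt*::nu/nu) gave 2 mTEC and 3 cTEC libraries. The deletion set had 5 deleted and 5 control cTEC libraries of the iFoxn1(del7,8) cross, all taken 72 h after doxycycline. Both its groups were homozygous for beta5t-rtTA and for Foxn1fl/fl. Only the deleted group also carried the tetO-Cre1Jaw/J transgene, in the heterozygous state. In this cross the beta5t promoter, active in cTEC and their progenitors, drives rtTA, which turns on Cre under doxycycline. The labels used here give neither strain nor age. Each group is a single record whose libraries are numbered in the table only, so whether they came from separate animals is unknown, and p-values measure the spread between these libraries.

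Total counts ranged from 20719630 to 22372633 per library. Foxn1 itself averaged 494.9 CPM (counts scaled to the library total) in heterozygous mTEC and 317.9 CPM in homozygous mTEC, against the order of transgene copies in the labels. It averaged 1166 CPM in heterozygous cTEC and 1364 CPM in homozygous cTEC, and 433.6 CPM in deleted and 453.6 CPM in control cTEC. The gene total does not separate transgene from nude-allele transcripts, nor transcripts with the deleted exons from those without, so it does not check the labels, and every dose direction below rests on the libraries as labelled. The mTEC markers Aire, Fezf2 and Cd80 marked the mTEC libraries, with Aire at 999 to 1188 CPM there and at 1.05 to 16.3 CPM in all cTEC libraries. Psmb11, a cTEC marker, averaged 105 CPM in heterozygous and 997.4 CPM in homozygous cTEC. It averaged only 0.319 CPM in deleted and 0.920 CPM in control cTEC, both of which carry the beta5t-rtTA locus. The 8 cTEC markers, Psmb11 among them, summed to 2195 to 2544 CPM in heterozygous and 16410 to 18536 CPM in homozygous cTEC. In the deletion set they summed to 2837 to 3309 CPM in deleted and 6553 to 23950 CPM in control cTEC. Their sums in mTEC were 691.3 to 745.1 CPM in heterozygous and 1247 to 1457 CPM in homozygous mice. All 8 were called lower at the lower dose in cTEC and in mTEC (adjusted p under 0.05, edgeR's quasi-likelihood test). After deletion 6 of the 8 were called lower and none higher. Of all genes tested, 21.9% were called lower by dose in cTEC, 30.8% by dose in mTEC and 1.97% in either direction by deletion. In these bulk samples fewer cells of a type and less RNA per cell cannot be told apart.

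Histidine decarboxylase (Hdc) makes histamine from histidine, and diamine oxidase (Aoc1) breaks down extracellular histamine and putrescine by oxidative deamination. Il4i1 is a secreted oxidase of aromatic L-amino acids, mainly phenylalanine, that releases hydrogen peroxide and ammonia. Inducible nitric oxide synthase (Nos2) makes nitric oxide from arginine. mTEC are known for expressing many genes of other tissues, partly through Aire.

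On the GRCm38.p6 build, Hdc spans chr2:126593659-126624025, Aoc1 chr6:48895255-48909188, Il4i1 chr7:44836288-44840809 and Nos2 chr11:78920787-78960226. Il4i1 overlaps the protein-coding gene Il4i1b (chr7:44816370-44840804), which has no row in the table, and the end of Tbc1d17 (chr7:44840776-44849079), which has one, with 27969 counts over the 20 libraries against 44751 for Il4i1. Aoc1 overlaps the long non-coding gene Gm44764 (chr6:48861457-48903063), without a row. No strand setting was stated, so reads shared with these neighbours cannot be separated, and the Il4i1 values may include reads of Il4i1b. The promoters of the members with an entry in the RefSeq table are shown because the 4 genes were high and low in the same libraries. Each runs from 250 bases before the start site to 50 bases from it, on the gene's strand, and capitals mark matches to the motifs described next.
Hdc, chr2:126618629-126618928, minus strand: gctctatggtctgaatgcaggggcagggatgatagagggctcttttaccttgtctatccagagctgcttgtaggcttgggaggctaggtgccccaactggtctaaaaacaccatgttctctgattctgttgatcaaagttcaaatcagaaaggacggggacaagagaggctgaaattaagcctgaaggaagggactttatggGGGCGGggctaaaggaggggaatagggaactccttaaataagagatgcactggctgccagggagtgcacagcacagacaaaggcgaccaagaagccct
Aoc1, first start site, chr6:48895005-48895304, plus strand: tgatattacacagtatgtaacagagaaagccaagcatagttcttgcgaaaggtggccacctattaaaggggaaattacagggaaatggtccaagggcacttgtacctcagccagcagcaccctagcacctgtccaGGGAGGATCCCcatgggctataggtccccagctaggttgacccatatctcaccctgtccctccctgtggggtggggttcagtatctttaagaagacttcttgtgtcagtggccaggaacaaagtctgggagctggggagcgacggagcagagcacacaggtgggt
Aoc1, second start site, chr6:48904736-48905035, plus strand: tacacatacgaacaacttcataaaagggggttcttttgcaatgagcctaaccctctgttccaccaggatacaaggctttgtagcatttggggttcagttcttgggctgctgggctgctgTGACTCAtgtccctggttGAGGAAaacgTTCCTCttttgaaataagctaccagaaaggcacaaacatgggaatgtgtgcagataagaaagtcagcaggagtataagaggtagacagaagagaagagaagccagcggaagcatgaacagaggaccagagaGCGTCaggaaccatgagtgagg
Il4i1, chr7:44836038-44836337, plus strand: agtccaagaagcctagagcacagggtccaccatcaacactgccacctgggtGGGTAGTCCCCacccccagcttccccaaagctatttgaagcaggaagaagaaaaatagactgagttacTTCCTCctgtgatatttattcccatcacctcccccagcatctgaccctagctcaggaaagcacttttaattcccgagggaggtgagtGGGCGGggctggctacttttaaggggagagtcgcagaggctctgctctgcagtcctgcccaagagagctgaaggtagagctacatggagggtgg

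Motifs were searched as letters on both strands, and a match is a description of these windows, not a site. The GC box GGGCGG began 48 bases before the Hdc start and 44 bases before the Il4i1 start, and 35.7% of 32851 mouse promoters of the same length hold it. The NF-kB pattern GGGNNNNNCC matched 115 bases before the first Aoc1 start and 199 bases before the Il4i1 start, each in overlapping matches on both strands, and 50.8% of promoters hold it. GAGGAA, bound by PU.1 and Spi-B, matched at 113 and, on the opposite strand, at 103 bases before the second Aoc1 start, and on the opposite strand 131 bases before the Il4i1 start, with a background of 28.3%. The AP-1 letters TGANTCA matched once, 131 bases before the second Aoc1 start (7.81% of promoters). GACGC, the core of the FOXN1 motif, matched once, on the opposite strand 29 bases into the second Aoc1 transcript (27.2% of promoters). TATAAA (13.6% of promoters) and the STAT letters TTCNNNGAA (8.3% of promoters) were not in these windows.

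All 4 genes had their highest level in homozygous mTEC, their next highest in heterozygous mTEC and far lower levels in every cTEC group. Hdc was at 260.4 and 241.3 CPM in heterozygous mTEC and at 501.8 and 455.2 CPM in homozygous mTEC. Its cTEC values were 0.640, 0.881 and 0.597 CPM in heterozygous and 1.45, 1.31 and 0.999 CPM in homozygous mice. No library of one of these 4 groups reached into the range of another. With 2 or 3 libraries a group, separate ranges are weak evidence here and below, and the share of all genes with separate ranges was not counted.

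Aoc1 was at 71.2 and 75.4 CPM in heterozygous mTEC and at 272.1 and 259.6 CPM in homozygous mTEC. In cTEC it was at 0.228, 0.556 and 0.275 CPM in heterozygous and at 1.03, 0.861 and 0.666 CPM in homozygous mice. The groups were again separate. The cTEC values rest on few reads, with 5, 12 and 6 counts in the heterozygous and 22, 19 and 14 counts in the homozygous libraries.

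Il4i1 was at 451.1 and 439.2 CPM in heterozygous mTEC and at 523.5 and 534.5 CPM in homozygous mTEC. In cTEC it was at 3.43, 2.32 and 2.66 CPM in heterozygous and at 3.60, 4.08 and 3.14 CPM in homozygous mice. The mTEC groups were separate, whereas the cTEC groups overlapped, because the highest heterozygous library lay above the lowest homozygous library.

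Nos2 was at 28.6 and 25.3 CPM in heterozygous mTEC and at 214.3 and 224.1 CPM in homozygous mTEC. In cTEC it was at 0.228, 0.0463 and 0.138 CPM in heterozygous and at 1.31, 1.09 and 0.666 CPM in homozygous mice, from 5, 1 and 3 counts against 28, 24 and 14 counts. All 4 groups were separate, and Nos2 showed the widest gap between the doses in either subset.

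**Figure D1:**
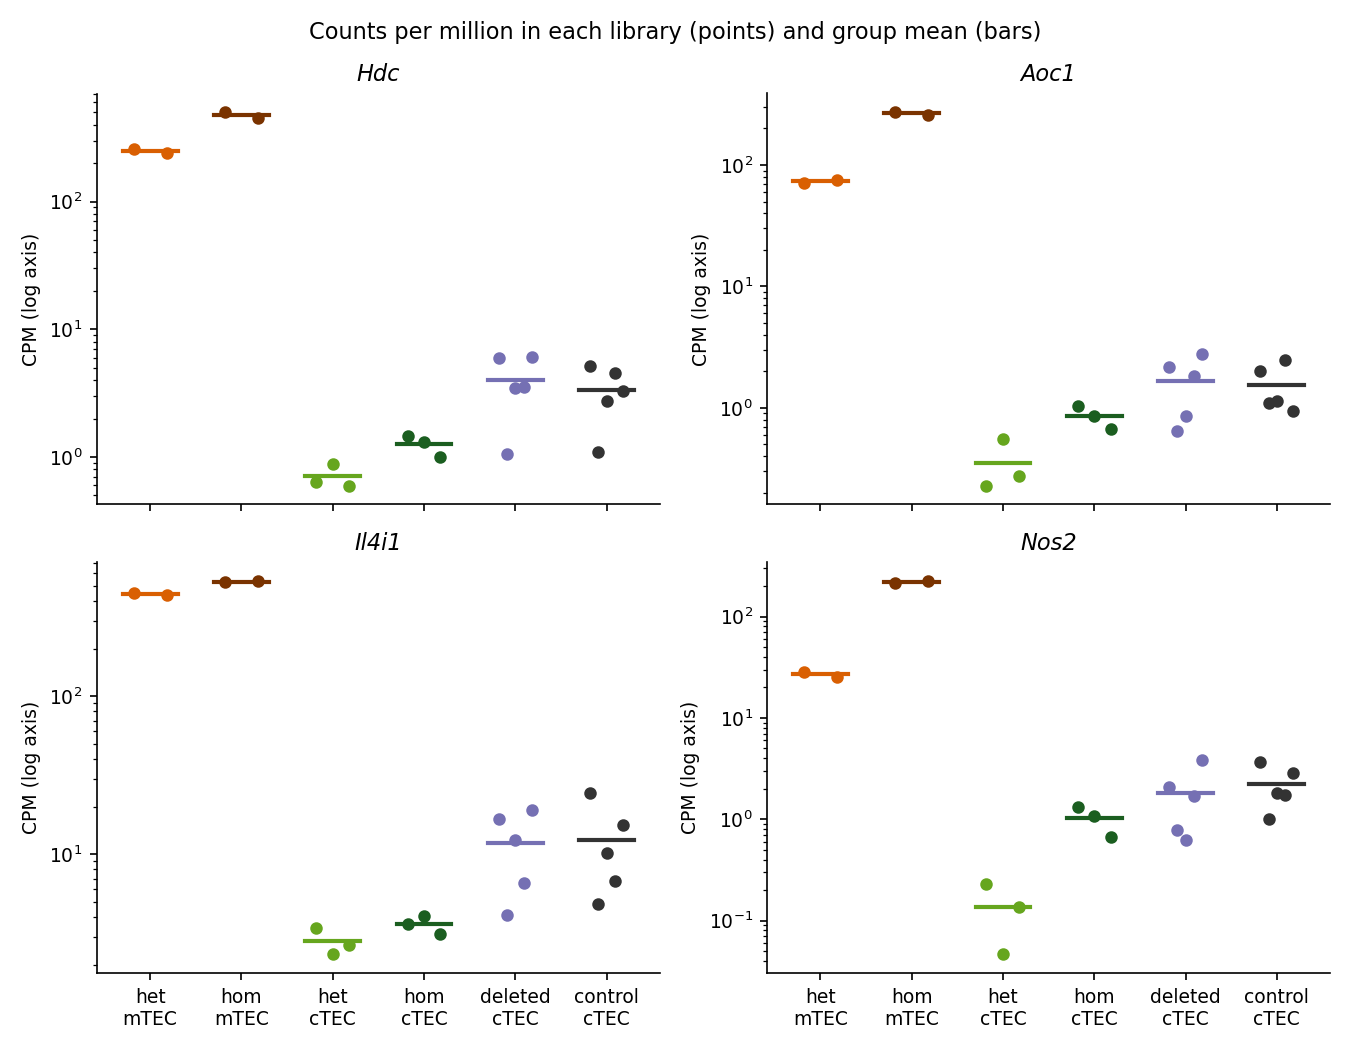
CPM (log axis) of Hdc, Aoc1, Il4i1 and Nos2 in each of the 20 libraries (points), with the group mean as a bar, for heterozygous (het) and homozygous (hom) mTEC and cTEC and for deleted and control cTEC. Both mTEC groups lie above every cTEC library for each gene, and Nos2 shows the widest step between het and hom.

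The mTEC over cTEC ratio, on which the members were chosen, is a description only. Its fitted log2 value was 8.38 in heterozygous and 8.32 in homozygous mice for Hdc, 7.59 and 8.03 for Aoc1, 7.22 and 6.95 for Il4i1, and 7.47 and 7.49 for Nos2. Of all 19222 genes tested, 40.4% were called higher in mTEC in heterozygous and 43.2% in homozygous mice (8303 higher and 7577 lower in homozygous mice, but 9581 and 5724 without normalization factors). The mean cTEC level was 0.281% of the mTEC level for Hdc in heterozygous and 0.262% in homozygous mice, 0.482% and 0.320% for Aoc1, 0.629% and 0.682% for Il4i1, and 0.510% and 0.466% for Nos2. Among mTEC markers the same share was 0.141% and 0.203% for Aire, 0.126% and 0.212% for Fezf2 and 0.263% and 0.373% for Cd80, the lowest of the 10. The other 7 kept more, with Krt5 at 29.8% and 4.48%, Krt14 at 26.0% and 4.78%, Cd40 at 8.10% and 19.2%, Cldn4 at 10.2% and 0.648%, Ccl21a at 6.62% and 2.46%, Cldn3 at 3.82% and 0.509%, and Tnfrsf11a at 1.95% and 1.77%. The members' shares lay above those of Aire and Fezf2, and in homozygous mice Cd80, Cldn3 and Cldn4 fell within the members' range. The part of mTEC among the sorted cTEC in these values was not tested.

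In mTEC, the lower transgene dose went with less RNA of all 4 enzymes, by sizes from 8.00-fold for Nos2 to 1.17-fold for Il4i1. Nos2 averaged 27.0 ± 2.36 CPM in heterozygous and 219.2 ± 6.98 CPM in homozygous mTEC (SD, n = 2 each), a fitted log2 fold change of -3.00 ± 0.11 (SE) with adjusted p = 2.86e-09 by edgeR's quasi-likelihood test with Benjamini-Hochberg adjustment. Aoc1 averaged 73.3 ± 2.98 CPM in heterozygous and 265.9 ± 8.90 CPM in homozygous mTEC, 3.57-fold lower by the fit (log2 -1.84 ± 0.09, adjusted p = 9.77e-09). Hdc averaged 250.9 ± 13.5 CPM in heterozygous and 478.5 ± 32.9 CPM in homozygous mTEC, 1.88-fold lower (log2 -0.91 ± 0.08, adjusted p = 1.25e-06). The Hdc and Il4i1 calls were lost when all 20 libraries were fitted together with edgeR (adjusted p = 0.120 for Hdc and 0.785 for Il4i1). The histamine-making enzyme and the histamine-degrading enzyme were thus both lower, the degrading one by more.

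Il4i1 averaged 445.2 ± 8.45 CPM in heterozygous and 529.0 ± 7.74 CPM in homozygous mTEC (log2 -0.23 ± 0.09, adjusted p = 0.0397 by the same test). This call was lost when any single mTEC library was left out, with adjusted p between 0.0888 and 0.172. Of all genes tested in mTEC, 30.8% were called lower and 28.9% higher. With DESeq2's size factors the median of all genes in mTEC shifted by -0.128 on the log2 scale and the calls became 3911 higher and 7082 lower, against 5550 higher and 5922 lower. The 4 calls held under that scaling, with Il4i1 at -0.35. The members were chosen with these results known, so the calls are no independent evidence of a shared direction.

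Counts of the members set against each other inside a library do not depend on scaling. For each Il4i1 count there were 0.0576 to 0.0635 Nos2 counts in heterozygous mTEC and 0.409 to 0.419 in homozygous mTEC. The same ratio of Aoc1 was 0.158 to 0.172 in heterozygous and 0.486 to 0.520 in homozygous mTEC, and that of Hdc 0.549 to 0.577 in heterozygous and 0.852 to 0.959 in homozygous mTEC. No range overlapped between the doses. With 2 libraries a group such separation is weak evidence, and no further test was made. In these libraries the proportions among the 4 mRNAs were unlike at the 2 doses, as a description only.

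Markers of blood cells and of mTEC subtypes also differed between the doses in mTEC, where 30.8% of all genes were called lower and 28.9% higher. The summed level of 9 macrophage markers was 110.1 to 115.1 CPM in heterozygous and 567.4 to 666.9 CPM in homozygous mTEC, most of it Lyz2, and 7 of the 9 were called lower and none higher. The 6 neutrophil markers summed to 29.3 to 32.1 CPM in heterozygous and 158.6 to 171.8 CPM in homozygous mTEC, with all 5 tested called lower and Elane at 0 in heterozygous mTEC. Mast cell and basophil markers, of which all 5 tested of 7 listed were called lower, summed to 2.87 to 3.30 CPM in heterozygous and 26.6 to 28.1 CPM in homozygous mTEC. Fcer1a (summed counts of 13 in heterozygous and 93 in homozygous mTEC), Ms4a2 (13 and 70) and Mcpt4 (25 and 358) passed the filter through homozygous mTEC. These markers could hardly be called higher, so their direction adds little. Hdc is also made by mast cells and basophils, and Nos2 and Il4i1 by activated myeloid cells.

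Dendritic cell markers summed to 33.2 to 33.2 CPM in heterozygous and 44.5 to 46.8 CPM in homozygous mTEC (5 of 6 tested lower), and B cell markers to 17.7 to 20.6 and 36.6 to 44.4 CPM in the same order (3 of 5 lower, 1 higher). Of the mTEC subtypes, tuft-like markers summed to 391.4 to 483.2 CPM in heterozygous and 1152 to 1292 CPM in homozygous mTEC, with 8 of 8 lower, and microfold markers to 794.9 to 829.9 CPM in heterozygous and 1003 to 1140 CPM in homozygous mTEC, with 4 of 6 lower. Enterohepatic markers summed to 279.8 to 296.8 CPM in heterozygous and 418.7 to 511.0 CPM in homozygous mTEC (4 lower, 1 higher). Neuroendocrine markers summed to 349.0 to 358.5 CPM in heterozygous and 307.1 to 335.9 CPM in homozygous mTEC, with 2 of 6 higher, 1 lower and a median of 0.30. Thymocyte markers, all 12 called lower, summed to 36.0 to 37.3 CPM in heterozygous and 68.2 to 90.9 CPM in homozygous mTEC. The 10 general mTEC markers summed to 5881 to 6031 CPM in heterozygous and 6744 to 7432 CPM in homozygous mTEC, with 5 lower and 1 higher. The part of these cells in the members' dose differences was not tested.

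In cTEC the 4 enzymes were also lower at the lower dose, at levels of a few CPM or less. Nos2 averaged 0.137 ± 0.0910 CPM in heterozygous and 1.02 ± 0.327 CPM in homozygous cTEC (SD, n = 3 each), with log2 -2.97 ± 0.41 and adjusted p = 5.82e-05 by edgeR's quasi-likelihood test. Aoc1 averaged 0.353 ± 0.177 CPM in heterozygous and 0.852 ± 0.182 CPM in homozygous cTEC (log2 -1.39 ± 0.30, adjusted p = 0.00194). Hdc averaged 0.706 ± 0.153 CPM in heterozygous and 1.25 ± 0.231 CPM in homozygous cTEC (log2 -0.96 ± 0.22, adjusted p = 0.00349). These 3 calls held in each of the 13 alternatives run, whichever library was left out.

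Il4i1 averaged 2.80 ± 0.568 CPM in heterozygous and 3.61 ± 0.470 CPM in homozygous cTEC, with log2 -0.50 ± 0.15 and adjusted p = 0.0149, and its call was lost in 6 of 13 alternatives. Those were the fits without heterozygous library 2 or 3 or homozygous library 2, those on the cTEC libraries alone, and that without normalization factors (adjusted p = 0.0520). Of all genes tested in cTEC, 21.9% were called lower and 20.9% higher. Without normalization factors the median of all genes shifted by 0.113 and the split became 5931 higher and 2859 lower, against 4024 higher and 4201 lower. The lower calls of Hdc, Aoc1 and Nos2 did not depend on this scaling.

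The mTEC markers among the sorted cTEC did not all move one way. The 10 markers summed to 757.2 to 941.5 CPM in heterozygous and 208.1 to 236.6 CPM in homozygous cTEC, most of it Krt5, Krt14 and Ccl21a. Aire averaged 1.42 ± 0.191 CPM in heterozygous and 2.25 ± 0.831 CPM in homozygous cTEC, Fezf2 0.275 ± 0.120 and 0.635 ± 0.0973 CPM, and Cd80 0.0767 ± 0.0269 and 0.262 ± 0.0896 CPM, in the same order. Macrophage markers summed to 20.65 to 21.98 CPM in heterozygous and 10.5 to 14.2 CPM in homozygous cTEC. Of the 9 markers 2 were called higher and 2 lower (all genes 20.9% higher and 21.9% lower), and only 5 had more than 3 counts in both groups. Mertk (14.0 ± 1.14 CPM in heterozygous and 7.71 ± 0.843 CPM in homozygous cTEC) and Cd68 (4.46 ± 0.964 and 1.47 ± 0.100 CPM) carried that sum, while Csf1r (0.261 ± 0.163 and 0.714 ± 0.155 CPM) and Mrc1 (0.138 ± 0.0470 and 0.775 ± 0.593 CPM) had higher means in homozygous cTEC. Thymocyte markers, all 12 called lower, summed to 10.3 to 18.7 CPM in heterozygous and 63.4 to 101.2 CPM in homozygous cTEC, and 6 of 7 mast cell and basophil markers were at 0 in heterozygous and 4 of 7 in homozygous cTEC. The part of mTEC and of blood cells in the cTEC differences of the members was not tested.

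The dose effect did not differ detectably between the subsets for any of the 4 genes, beside 42.5% of all genes tested that were called for this difference. With only 4 genes this does not set the members apart from all genes. The cTEC side rests on few reads, with summed counts in heterozygous and homozygous cTEC of 9 and 66 for Nos2, 23 and 55 for Aoc1 and 46 and 81 for Hdc. The part of mTEC among the sorted cTEC in the likeness of the 2 effects was not tested. The effect in mTEC minus that in cTEC was 0.05 for Hdc (95% interval -0.42 to 0.53, adjusted p = 0.901) and -0.44 for Aoc1 (interval -1.19 to 0.30, adjusted p = 0.364), on the log2 scale. It was 0.27 for Il4i1 (interval -0.10 to 0.64, adjusted p = 0.227) and -0.03 for Nos2 (interval -1.16 to 1.11, adjusted p = 1.00). The intervals for Aoc1 and Nos2 leave room for differences of more than 2-fold, but that of Nos2 is approximate because its value is near 0. Without heterozygous cTEC library 1 the Il4i1 difference was called, at 0.46 with adjusted p = 0.0410. Over all genes the calls for the difference were 4848 higher and 3314 lower, against 3101 higher and 4123 lower without normalization factors.

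**Figure D2:**
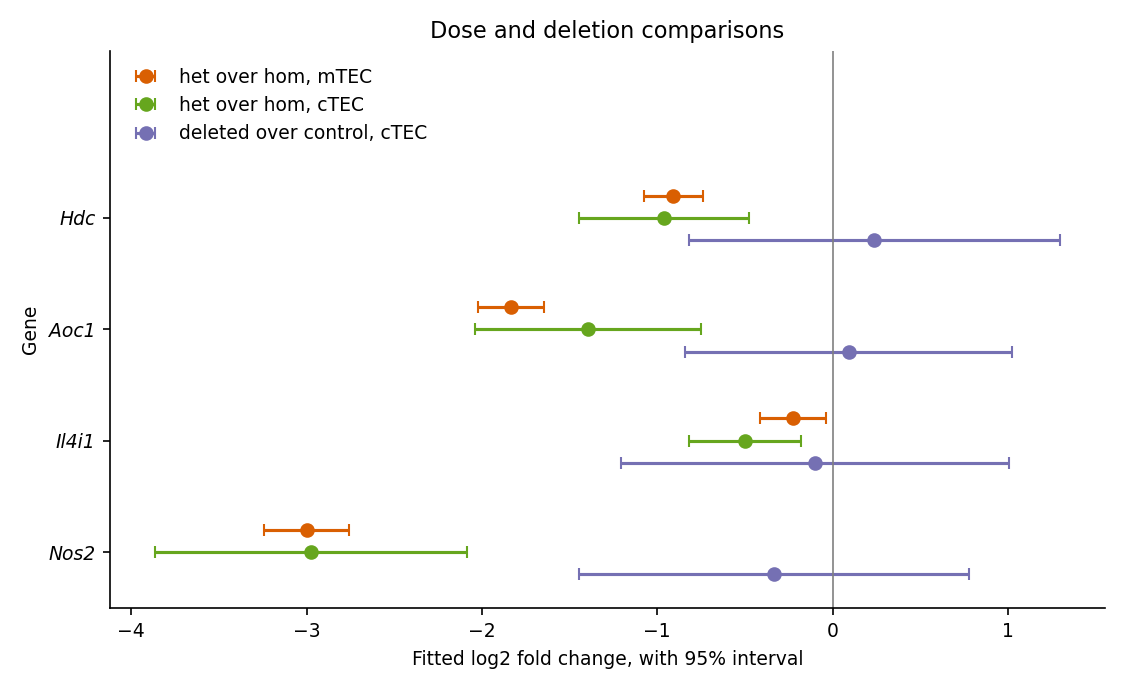
Fitted log2 fold change (points) with its 95% interval (bars) for each gene: heterozygous over homozygous mTEC, heterozygous over homozygous cTEC, and deleted over control cTEC. The mTEC and cTEC dose intervals overlap for each gene and lie below 0, and each deletion interval spans 0.

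Deletion of Foxn1 in cTEC for 72 h left the 4 enzymes within the spread between libraries. Hdc was at 5.95, 1.05, 3.45, 3.54 and 6.08 CPM in deleted and at 5.12, 1.09, 2.75, 4.53 and 3.26 CPM in control cTEC, libraries 1 to 5 in turn. Aoc1 was at 2.17, 0.639, 0.862, 1.84 and 2.75 CPM in deleted and at 2.01, 1.09, 1.13, 2.49 and 0.939 CPM in control cTEC. Both sets of values overlapped over most of their range.

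Il4i1 was at 16.6, 4.11, 12.3, 6.57 and 19.0 CPM in deleted and at 24.2, 4.83, 10.2, 6.80 and 15.2 CPM in control cTEC. Nos2 was at 2.08, 0.776, 0.622, 1.70 and 3.86 CPM in deleted and at 3.70, 1.00, 1.80, 1.72 and 2.86 CPM in control cTEC. These groups overlapped as well. Library 2 was the lowest or next to lowest of its group for each of the 4 genes.

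The fitted deletion effect was 0.24 for Hdc (95% interval -0.82 to 1.29), 0.09 for Aoc1 (-0.84 to 1.02), -0.10 for Il4i1 (-1.21 to 1.01) and -0.33 for Nos2 (-1.45 to 0.78), on the log2 scale. Adjusted p was 0.819, 0.929, 0.934 and 0.755 in that order, by edgeR's quasi-likelihood test. This fit had no block for the library number, so its intervals include any spread that same-numbered libraries share. With such a block none of the 4 was called either. None of the 4 was called, nor at an unadjusted p under 0.05, nor by DESeq2 or limma-voom, beside 1.97% of all genes tested (300 of 15224). That background is uncertain, since the count ran from 27 without deleted library 4 to 920 without control library 2, and was 104 with limma-voom, 1108 with DESeq2 and 1220 with the replicate number as a block.

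Libraries of the deletion set also differed in their markers of mTEC and of other cells. The 10 mTEC markers summed to 1655, 449.0, 1457, 999.6 and 1756 CPM in deleted and to 1719, 530.1, 1178, 673.6 and 1070 CPM in control cTEC, libraries 1 to 5 in turn. Library 2 of both groups had the lowest marker sum, and the libraries with the highest sums, deleted 1 and 5 and control 1, held the 3 highest values of Il4i1. Deleted library 3, with a marker sum of 1457 CPM, had the lowest Nos2 of all 10 libraries at 0.622 CPM, and control library 4, with 673.6 CPM, had the second-highest Aoc1 at 2.49 CPM.

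Markers of other cells varied over the same libraries. Macrophage markers summed to 61.2, 15.8, 39.6, 42.5 and 64.8 CPM in deleted and to 49.99, 17.8, 33.6, 51.4 and 35.2 CPM in control cTEC, libraries 1 to 5 in turn. The 4 libraries with the highest macrophage sums, deleted 1 and 5 and control 1 and 4, also held the 4 highest values of Hdc, and deleted library 2 had the lowest of both. Thymocyte markers (60.5 to 413.0 CPM in deleted and 65.8 to 551.6 CPM in control cTEC) and endothelial markers (4.75 to 26.3 and 4.88 to 24.8 CPM, in the same order) also had their lowest sums in library 2. The part of mTEC and of these other cells in the spread of the members was not tested.

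**Figure D3:**
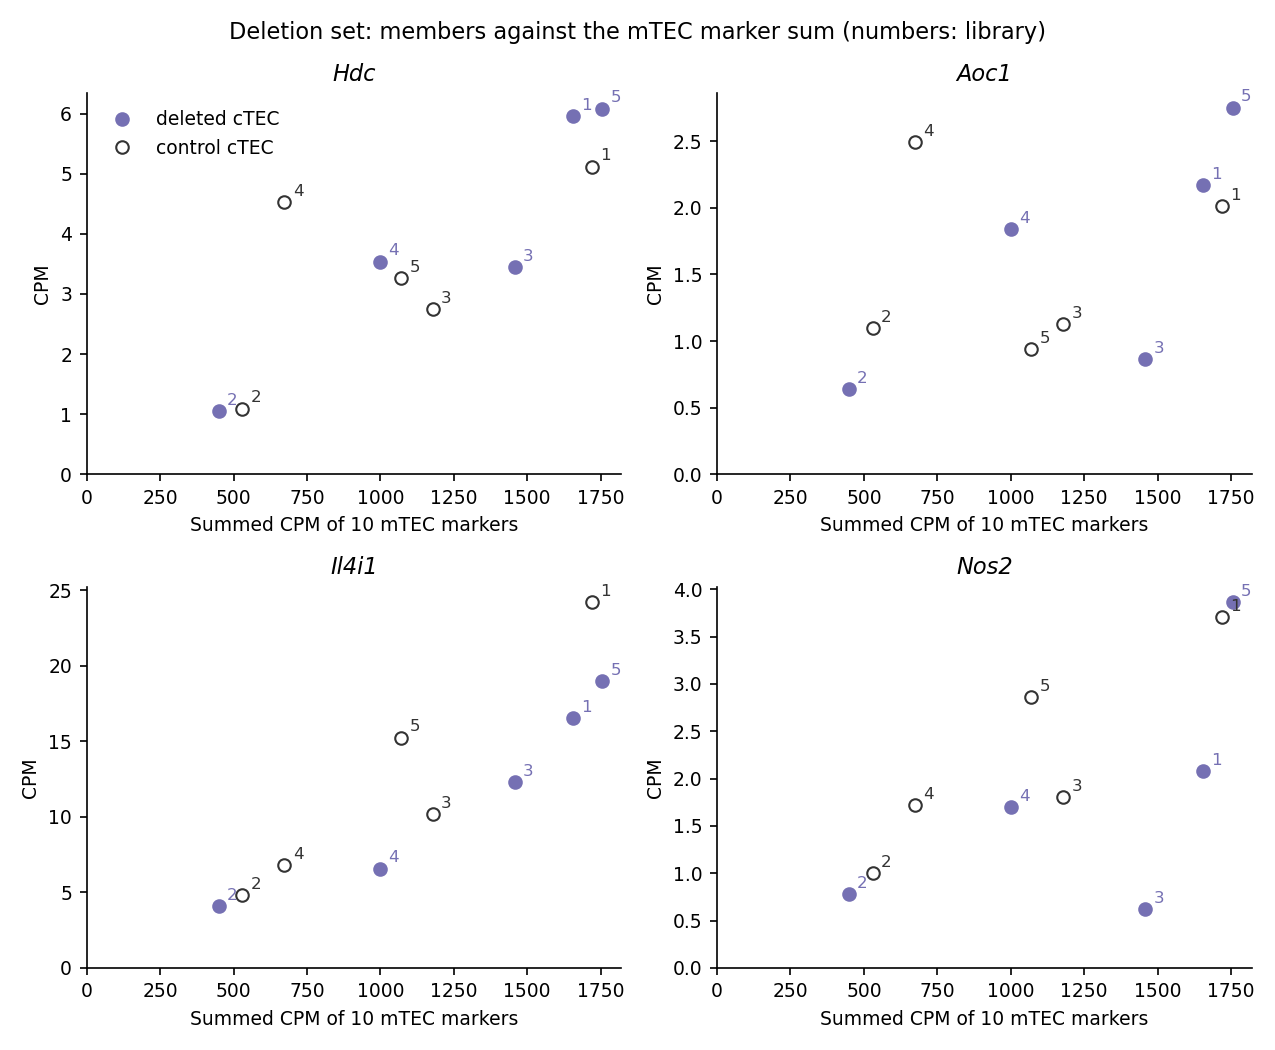
CPM of each gene against the summed CPM of 10 mTEC markers in the 5 deleted (filled) and 5 control (open) cTEC libraries, numbered as in the table. Deleted and control points lie among each other, and the libraries numbered 2 lie at the low end of the marker sum, at 449.0 and 530.1 CPM.

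Over the 6 groups, the order of the mean level was the same for Hdc and Aoc1. Homozygous mTEC came above heterozygous mTEC, and these above deleted, control, homozygous and heterozygous cTEC. For both genes the ranges of deleted and control, and of control and homozygous cTEC, overlapped, while the other neighbours were separate. Il4i1 and Nos2 had control above deleted cTEC, with overlapping ranges. Below these, Il4i1 in homozygous and heterozygous cTEC overlapped each other but not the deletion set, whereas Nos2 in homozygous cTEC overlapped deleted cTEC and was separate from heterozygous cTEC.

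The rest of histamine handling followed the 2 histamine enzymes only in part. Of 11 listed genes 9 were tested in mTEC, and 5 were lower, 2 higher and 2 not called (all genes 30.8% lower and 28.9% higher), with a median log2 fold change of -0.88 against 0.01 over all genes. Hrh1 (summed counts of 6 in heterozygous and 49 in homozygous mTEC) passed the filter through homozygous mTEC, so it could hardly be called higher. Slc18a2, the vesicular monoamine transporter, averaged 5.85 ± 0.609 CPM in heterozygous and 19.5 ± 0.264 CPM in homozygous mTEC (log2 -1.71 ± 0.17, adjusted p = 4.02e-06). Hnmt, which methylates histamine inside cells, averaged 1.01 ± 0.168 CPM in heterozygous and 3.26 ± 0.753 CPM in homozygous mTEC (log2 -1.66 ± 0.26, adjusted p = 1.43e-04). Higher were Maoa, a monoamine oxidase (log2 0.57 ± 0.10, adjusted p = 2.24e-04), and the histamine receptor gene Hrh3 (log2 1.37 ± 0.25, adjusted p = 4.50e-04).

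Of the 9 histamine handling genes tested in cTEC only 6 had more than 3 counts in both dose groups, so calls were hardly possible for the others. Among the 9 only Maoa was called (all genes 20.9% higher and 21.9% lower). It averaged 31.8 ± 1.42 CPM in heterozygous and 17.7 ± 1.10 CPM in homozygous cTEC (log2 0.71 ± 0.08, adjusted p = 5.10e-06). The difference between the subsets was called for 5 of the 9 genes (all genes 42.5%), among them Slc18a2 (-1.68 ± 0.25, adjusted p = 1.66e-04) and Hnmt (-2.17 ± 0.40, adjusted p = 7.28e-04). Here too only 6 of the 9 had more than 3 counts in every transgenic group. In the deletion set 4 of the 11 were tested and none was called, beside 1.97% of all genes.

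Genes of polyamine turnover, which share putrescine with Aoc1, had no direction that held under each scaling in mTEC. Of 14 tested, 7 were higher and 3 lower in heterozygous mTEC, with a median of 0.17 (all genes 28.9% higher and 30.8% lower), and 3 were higher and 4 lower with DESeq2's size factors. Agmat (summed counts of 11 in heterozygous and 32 in homozygous mTEC) passed the filter through homozygous mTEC, so it could hardly be called higher. Srm, which makes spermidine from putrescine, averaged 42.4 ± 4.57 CPM in heterozygous and 22.9 ± 1.02 CPM in homozygous mTEC (log2 0.91 ± 0.08, adjusted p = 2.20e-06), and Sms, which makes spermine, was higher by 0.64 ± 0.08 (adjusted p = 3.00e-05). Sat1, the acetyltransferase that starts polyamine breakdown, was lower (log2 -0.44 ± 0.07, adjusted p = 2.08e-04), as was the spermine oxidase Smox (-0.39 ± 0.11, adjusted p = 0.00769).

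The same 2 steps went the other way in cTEC. Srm averaged 47.6 ± 2.11 CPM in heterozygous and 67.4 ± 0.777 CPM in homozygous cTEC (log2 -0.63 ± 0.06, adjusted p = 3.57e-06) and Sat1 39.2 ± 2.11 CPM in heterozygous and 22.4 ± 0.940 CPM in homozygous cTEC (log2 0.67 ± 0.07, adjusted p = 2.31e-06). The difference between the subsets was called for both, at 1.55 ± 0.11 for Srm (adjusted p = 2.77e-07) and -1.11 ± 0.10 for Sat1 (adjusted p = 1.97e-06). Aoc3, another copper amine oxidase, averaged 5.30 ± 0.309 CPM in heterozygous and 0.591 ± 0.120 CPM in homozygous cTEC, opposite to Aoc1 (log2 3.02 ± 0.24, adjusted p = 2.94e-07). Fibroblast markers moved with it, with 6 genes summing to 218.4 to 241.3 CPM in heterozygous and 37.2 to 39.3 CPM in homozygous cTEC, and their part was not tested. Of the 14 genes tested in cTEC 7 were higher and 2 lower (all genes 20.9% higher and 21.9% lower). Of 13 tested in the deletion set none was called, beside 1.97% of all genes.

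Most genes of aromatic amino acid metabolism, the substrate class of Il4i1, were lower in heterozygous mTEC. Of 22 listed genes 20 were tested, and 13 were lower and 3 higher, with a median of -1.53, beside 30.8% lower and 28.9% higher among all genes. Tph2 (summed counts of 11 in heterozygous and 59 in homozygous mTEC), Ido2 (16 and 111) and Tat (16 and 66) passed the filter through homozygous mTEC. Kmo (20 and 198) and Dao (21 and 181) did so as well. Such genes could hardly be called higher, so the filter set part of this count and median. Tph1, tryptophan hydroxylase of serotonin synthesis, averaged 2.31 ± 0.204 CPM in heterozygous and 12.4 ± 0.361 CPM in homozygous mTEC (log2 -2.40 ± 0.16, adjusted p = 1.64e-07). Tdo2, which opens the tryptophan ring, averaged 2.55 ± 0.463 CPM in heterozygous and 17.3 ± 1.90 CPM in homozygous mTEC (log2 -2.74 ± 0.19, adjusted p = 1.89e-07). Higher were Gstz1, a late enzyme of tyrosine breakdown (log2 0.49 ± 0.08, adjusted p = 2.94e-04), and Ddc, the aromatic amino acid decarboxylase (log2 0.34 ± 0.10, adjusted p = 0.00774).

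Against homozygous cTEC, 16 of these 20 genes were higher in homozygous mTEC, beside 43.2% of all genes. Against heterozygous cTEC, 13 of 20 were higher in heterozygous mTEC, beside 40.4% of all genes. Genes that passed the filter through mTEC alone could hardly be called lower there. In either comparison 11 of the 20 had more than 3 counts in both groups. Within cTEC 3 were higher and 4 lower at the lower dose (all genes 20.9% higher and 21.9% lower), and Hpd, Ido1 and Th had no count there. Only 9 of the 20 had more than 3 counts in both cTEC groups. Ccbl1, a kynurenine aminotransferase, was higher (log2 0.94 ± 0.10, adjusted p = 4.23e-06), and Tph1 had 3 counts over the heterozygous against 24 over the homozygous cTEC libraries. The difference between the subsets was called for 6 of the 20 genes, beside 42.5% of all genes, with Tdo2 at -2.97 ± 0.48 (adjusted p = 3.04e-04). As only 9 of the 20 had more than 3 counts in every transgenic group, the 2 shares are hard to compare.

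Genes around nitric oxide did not follow Nos2 as a group. Of 17 tested in mTEC 7 were lower and 3 higher, with a median of -0.12, beside 30.8% lower and 28.9% higher among all genes. Arg1 and Arg2, the arginases that share arginine with Nos2, were lower, Arg1 at 4.67 ± 0.207 CPM in heterozygous and 14.7 ± 2.42 CPM in homozygous mTEC (log2 -1.63 ± 0.23, adjusted p = 5.39e-05) and Arg2 by log2 -0.82 ± 0.14 (adjusted p = 2.15e-04). Nos1, the neuronal nitric oxide synthase, was higher, at 37.9 ± 1.96 CPM in heterozygous and 19.9 ± 0.587 CPM in homozygous mTEC (log2 0.95 ± 0.13, adjusted p = 5.92e-05).

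In cTEC the opposite course of the 2 synthases was wider. Nos1 averaged 57.3 ± 9.17 CPM in heterozygous and 2.64 ± 0.527 CPM in homozygous cTEC, 19.7-fold higher (log2 4.30 ± 0.14, adjusted p = 1.10e-10), where Nos2 was lower. Gch1, the first enzyme of tetrahydrobiopterin synthesis, the cofactor of nitric oxide synthases, averaged 3.90 ± 0.723 CPM in heterozygous and 39.9 ± 2.05 CPM in homozygous cTEC (log2 -3.49 ± 0.14, adjusted p = 9.35e-10). The arginine transporter gene Slc7a1 was lower by log2 -1.02 ± 0.09 (adjusted p = 1.31e-06). Of the 17 genes 8 were higher and 4 lower in cTEC (all genes 20.9% higher and 21.9% lower).

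The difference between the subsets was called for 10 of these 17 genes, beside 42.5% of all genes. It was -3.35 ± 0.20 for Nos1 (adjusted p = 8.37e-08), 2.87 ± 0.23 for Gch1 (adjusted p = 8.02e-07) and -4.51 ± 0.42 for Arg1 (adjusted p = 3.24e-06), which was lower in heterozygous mTEC and higher in heterozygous cTEC (log2 2.88 ± 0.36, adjusted p = 2.16e-05). Nos2, at -0.03, was not called.

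Gch1 was also the only arginine and nitric oxide gene of 16 tested that was called in the deletion set, beside 1.97% of all genes. It was at 3.23 to 6.61 CPM in deleted and 15.7 to 73.8 CPM in control cTEC (log2 -3.06 ± 0.44, adjusted p = 0.0101). The groups did not overlap, but the call was lost with limma-voom and without deleted library 4. Tph1 was the only one of 10 aromatic amino acid genes called, at 0.189 ± 0.146 CPM in deleted and 1.15 ± 0.700 CPM in control cTEC (SD, n = 5 each; log2 -2.62 ± 0.57, adjusted p = 0.0443). Its call was lost with limma-voom and in 8 of the 10 fits that left out a library, all but those without control library 2 or 4.

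Il4i1 products and other tryptophan metabolites can activate the aryl hydrocarbon receptor. Of the 7 genes of its list tested in mTEC, 2 targets were lower, and the receptor and its partner were higher (all genes 30.8% and 28.9%), with a median of -0.44, and with DESeq2's size factors 4 were lower and 1 higher. The target genes Cyp1a2 (3.56 ± 0.161 CPM in heterozygous and 12.8 ± 1.38 CPM in homozygous mTEC, log2 -1.82 ± 0.20, adjusted p = 8.02e-06) and Cyp1a1 (log2 -1.66 ± 0.28, adjusted p = 2.74e-04) were lower. The other targets were not called, with Cyp1b1 at 18.4 ± 3.46 CPM in heterozygous and 25.3 ± 1.44 CPM in homozygous mTEC, Tiparp at 29.5 ± 0.0877 and 36.6 ± 2.66 CPM, and Ahrr at 0.849 ± 0.401 and 1.32 ± 0.0326 CPM, in the same order. The receptor gene Ahr (log2 0.66 ± 0.17, adjusted p = 0.00402) and its partner Arnt (0.23 ± 0.07, adjusted p = 0.0116) were higher. In cTEC Ahr (log2 0.90 ± 0.17, adjusted p = 6.50e-04) and Tiparp (0.31 ± 0.11, adjusted p = 0.0423) were higher and none was lower (all genes 20.9% higher and 21.9% lower). Only 5 of the 7 had more than 3 counts in both cTEC groups. None of 4 tested was called in the deletion set, beside 1.97% of all genes.

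**Figure D4:**
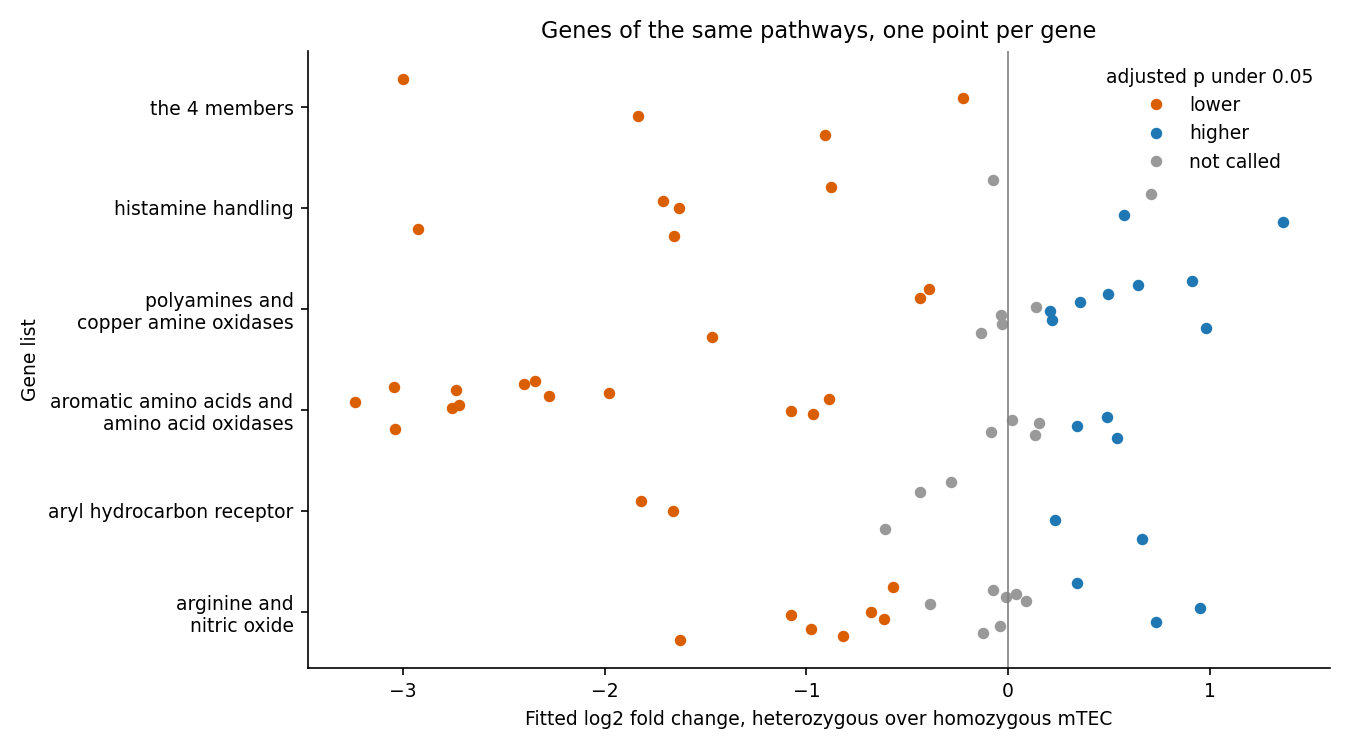
Fitted log2 fold change of heterozygous over homozygous mTEC for the 4 enzymes and for each tested gene of the 5 pathway lists (one point per gene), coloured by direction where the adjusted p was under 0.05. The aromatic amino acid list has 13 lower and 3 higher genes, and some genes of the list passed the filter only through homozygous mTEC. The polyamine list has 3 lower and 7 higher, which became 4 lower and 3 higher with DESeq2's size factors. Of all genes 30.8% were called lower and 28.9% higher.

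The genes with the most similar course over the 20 libraries were found by Pearson correlation of log2(CPM + 1) with each of 13863 other genes. Since all libraries share the difference between mTEC and cTEC, these values mostly rank genes by that step, and no p is given. Nearest to Hdc were Slc15a3 (r = 0.998), Il10ra (0.996), Ncf1 (0.996), Calcb (0.995) and Csf2rb (0.995). Nearest to Aoc1 were Cdhr5 (0.997), the costimulatory gene Cd80 (0.996), Sncg (0.996), Cyp26a1 (0.995) and Avil (0.995). Il4i1 had Syt1 (0.995), Sspo (0.993), Irf4 (0.993), Dsg1b (0.992) and Ltb (0.992), and Nos2 had Yipf1 (0.992), Ostf1 (0.992), Rptn (0.991), Fcer2a (0.991) and Il1rn (0.991).

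Among the members r was highest for the 2 histamine enzymes (0.989), close to that of Hdc with Il4i1 (0.987), and lowest for Il4i1 and Nos2 (0.947). Many other genes were nearer, as Aoc1 ranked 45 for Hdc and Hdc ranked 67 for Aoc1, of 13863 genes. The members were chosen on the step between mTEC and cTEC, so high values among them were set in advance and show no pairing. Among the neighbours, Rptn stood at 56.4 CPM in heterozygous and 310.3 CPM in homozygous mTEC and Il1rn, the interleukin-1 receptor antagonist, at 27.1 and 142.4 CPM, steps on the side of Nos2. Irf4, a transcription factor gene, stood at 49.2 CPM in heterozygous and 51.7 CPM in homozygous mTEC, a small step like that of Il4i1. Other neighbours did not share the member's step. Yipf1 (57.6 and 96.6 CPM) and Ostf1 (44.2 and 100.9 CPM), the nearest to Nos2, had smaller steps, in the same order. Syt1, the nearest to Il4i1, had a larger step (163.0 and 288.5 CPM), and its neighbour Ltb was higher in heterozygous mTEC (42.1 and 35.8 CPM).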

How the data were processed

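RNA was measured in 20 libraries in 6 groups, taken from GEO's labels. The authors deposited whole-number read counts per gene symbol. The submitters' processing notes name TopHat2 2.0.10, Bowtie2 2.2.3, Trimmomatic 0.32, featureCounts and the builds mm10 and GRCm38, with no role for each. For gene annotation and strand setting: not given in the sources used here. The 3 chromatin samples were not used here. No row lacked a gene name, and libraries of a group always differed by more than counting error.

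Tests on the counts used edgeR 4.0.16 under R 4.3.3 (quasi-likelihood test, two-sided, TMM factors, filterByExpr with minimum count 10 and minimum total 15), and p was adjusted by Benjamini-Hochberg over all genes tested, with a threshold of 0.05. The deletion fit used its own 10 libraries, and the 10 transgenic libraries were fitted together in 4 groups, because mTEC groups held 2. A gene could thus pass the filter through only the group where it was high. A call against that group then had its direction set by the filter. Log2 fold changes carry a prior count of 0.125. Each SE was the size of the log2 fold change divided by the square root of the test's F statistic, and the 95% intervals were built from it. For values near 0 these SEs and intervals are approximate. A difference of dose effects is that in mTEC minus that in cTEC. Test scripts were checked on artificial counts with known changes. Alternatives were DESeq2 1.42.0, limma-voom (limma 3.58.1), other scaling, no filter, a replicate block, other sets of libraries and leaving out each library.

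The members and the 5 pathway and 14 marker lists were chosen with earlier results of these data known. From each pathway list up to 2 genes of smallest adjusted p per direction and comparison could be named, and for each member the 5 nearest genes with a mean CPM of at least 1, leaving out predicted genes. Of 72 pathway genes 71 were in the table, and of 102 markers 101. Promoters and positions are from RefSeq (GRCm38.p6), and Nos2 has no promoter entry.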

Additional observations from a re-analysis of the deposited data

How the results depend on the processing

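Of the tested values of the 4 enzymes under the alternatives, 203 stayed on their side of the threshold, 12 lost a call, 1 gained one and no called value changed sign. The count of genes called by deletion was 300, and 1108 with DESeq2, 104 with limma-voom, 1220 with a replicate block and 27 to 920 when a library was left out (lowest without deleted 4, highest without control 2). None of the 4 enzymes was called by deletion with the replicate block. The main fit did not take the numbers as pairs, and the labels do not state a pairing. Deviations from the group mean of same-numbered deleted and control libraries correlated at 0.626, 0.756, 0.0950, 0.399 and 0.480, libraries 1 to 5 in turn. Of the 5 deleted libraries 4 correlated best with their own number. The main deletion intervals thus include any spread that same-numbered libraries share. In mTEC 11472 genes were called by dose, and 6819 with all 20 libraries in a single fit. That fit lost the calls of Hdc (log2 -0.91, adjusted p = 0.120) and Il4i1 (log2 -0.23, adjusted p = 0.785), and the cause was not tested. Il4i1 in mTEC was -0.25 to -0.20 with a library left out, where the lone library of a group was assumed to vary like the other groups. In cTEC Il4i1 was -0.68 to -0.37 with a library left out, -0.50 with the cTEC libraries only (adjusted p = 0.0524), -0.50 there with the replicate block (adjusted p = 0.0692) and -0.36 without normalization factors. Its difference of dose effects was 0.15 to 0.46 with a library left out. The counts of pathway genes called moved by over 1.5 times in 40 cases and by less in 230, and in the fit of all 20 libraries the mTEC counts were 4 for histamine handling, 3 for polyamines and 4 for arginine and nitric oxide. Depth limits the cTEC values, where Nos2 had as few as 1 count in a library.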
